A study of Mus musculus with 6 samples.

Results

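The relatives of Foxe3 among the forkhead factors, and the Sox factors, were followed in newborn lenses that carried a transgene and in wild-type lenses. Genes were taken by symbol: every gene whose single symbol begins with Fox and a letter from a to s, or with Sox, followed by a digit, without Foxe3 and Sox1. This gave 57 of the 18193 genes on the arrays, made up of 36 forkhead genes, 18 Sox genes and the noncoding transcripts Sox2ot, Sox6os and Foxl2os, which share the letters of a Sox or forkhead gene but encode no factor. Foxe1, Foxi2, Foxi3, Foxo6, Foxr1 and Foxr2 were not analysed here. Both groups were whole lenses of Balb/c mice aged 2 days, 3 arrays for each. The labels name neither the transgene nor its promoter, and the wild-type group carried none by its label. For each genotype 12 lenses were used. Whether the replicates came from separate animals is not stated, so a p-value here reflects the scatter of these 6 samples and that scatter could be technical.

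Forkhead proteins bind DNA through a winged-helix domain, and Sox proteins through an HMG box that bends it. In the lens, Foxe3 is known for keeping the epithelium alive and dividing. Sox2 acts with Pax6 when the lens forms from surface ectoderm, and Sox1 takes over in elongating fiber cells, where it drives gamma-crystallin genes. FoxO factors are held out of the nucleus by insulin and Akt signalling, and Foxm1 turns on genes of mitosis.

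Values are log2 levels per probe set after quantile normalization, and a difference is transgenic minus wild-type on that scale. Each gene was read from its probe set with the highest mean, and levels were not compared between genes. All 12 measured markers of lens fibers were bright, with means over the 6 arrays of 11.76 to 14.59, so the labelled tissue was borne out. Transgenic replicate 3 also held transcripts of other tissue. Its summed level of 12 epidermis markers was 14.82 (log2) against 10.01 to 10.91 in the other 5 arrays, that of 12 skeletal muscle markers 13.24 against 9.13 to 9.60, and that of 10 markers of periocular mesenchyme and cornea 13.70 against 9.85 to 10.33. By the probe sets used, none of the 57 genes in replicate 3 lay as far as 1 log2 unit from the mean of the other transgenic arrays. Of all 18193 genes, 307 did. Sox2, at 0.54 below, lay farthest from that mean among the 57. A dim second probe set of Sox21 stood at 5.19 in replicate 3, against 3.97 and 3.99 in the other transgenic arrays. The 57 genes are thus not shown to be free of such transcripts.

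Foxe3 itself stood at 13.33, 13.42 and 13.39 in transgenic replicates 1 to 3 and at 8.54, 8.86 and 8.82 in the wild-type replicates. The groups lay far apart, with a difference of 4.64 ± 0.10 (SE), or 24.9-fold, the largest rise of all genes (limma adjusted p = 2.07e-06).

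Beside this excess of Foxe3, few of its relatives were called different between the genotypes. Foxl2 was higher and Foxc1 lower in transgenic lenses, and the other 55 genes did not pass the test (limma, adjusted p under 0.05 over all genes). These 2 calls of 57 are 3.51% of the genes, against 4.55% called among all 18193. An unadjusted p under 0.05 was reached by 12 of the 57 (21.1%), against 22.4% of all genes. A difference of at least 0.5 was seen in Sox2 and Foxc1 only, 3.51% of the genes against 5.82% of all genes. The median difference was 0.014, and 0.011 over all genes. The forkhead genes had 1 rise, 1 fall and a median of 0.0064, and the Sox genes had neither rise nor fall and a median of 0.083. The median size of the difference, signs aside, was 0.11 for the 57 and 0.14 for all genes. The share of forkhead and Sox genes called was thus near the background.

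**Figure D1:**
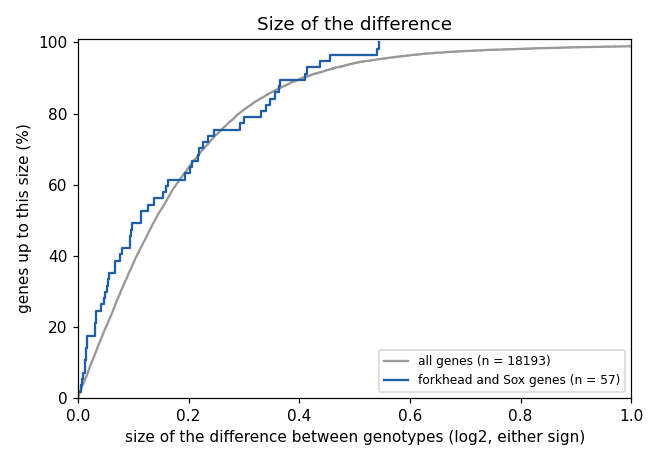
Cumulative share of genes (percent, vertical axis) by the size of the difference between genotypes (log2, signs aside, horizontal axis), for the 57 forkhead and Sox genes and all 18193 genes. The curve of the 57 genes ends at Sox2, whose difference was -0.54, while 5.82% of all genes had a difference of at least 0.5.

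The groups did not overlap for 12 of the 57 genes (21.1%), against 28.8% of all genes. In 9 of these the transgenic arrays were all above the wild-type arrays (15.8%, against 15.3% of all genes), and in 3 they were all below (5.26%, against 13.5%). The 9 were Foxl2, Foxp4, Sox21, Sox12, Foxo1, Foxo3, Foxd3, Foxp1 and Foxj3, and the 3 were Sox2, Foxc1 and Foxd1. Foxd3 and Foxd1 are named after their values were seen, and both lay below the median of all probe sets, 5.34, in each group. In all, 36 of the 57 genes reached that median in at least 1 group mean. The other 21, which include Foxa1, Foxa2, Foxa3, Foxb1, Foxc2, Foxj1, Foxp3, Sox5, Sox6, Sox7 and Sox8, stayed below it.

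The arrays set a limit on the difference that could be missed in the probe set used. For all 57 genes the 95% interval of the difference lay within 1 log2 unit on either side of 0, a factor of 2, and for 39 of them within 0.5. The widest reach was that of Sox2 downward, to -0.97, and that of Foxn2 upward, to 0.82. The standard error was 0.11 at the median. For the 21 genes that stayed below the median of all probe sets, the interval bounds the measured value and may not bound the change in RNA. A gene that did not pass is therefore not shown to be unchanged.

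**Figure D2:**
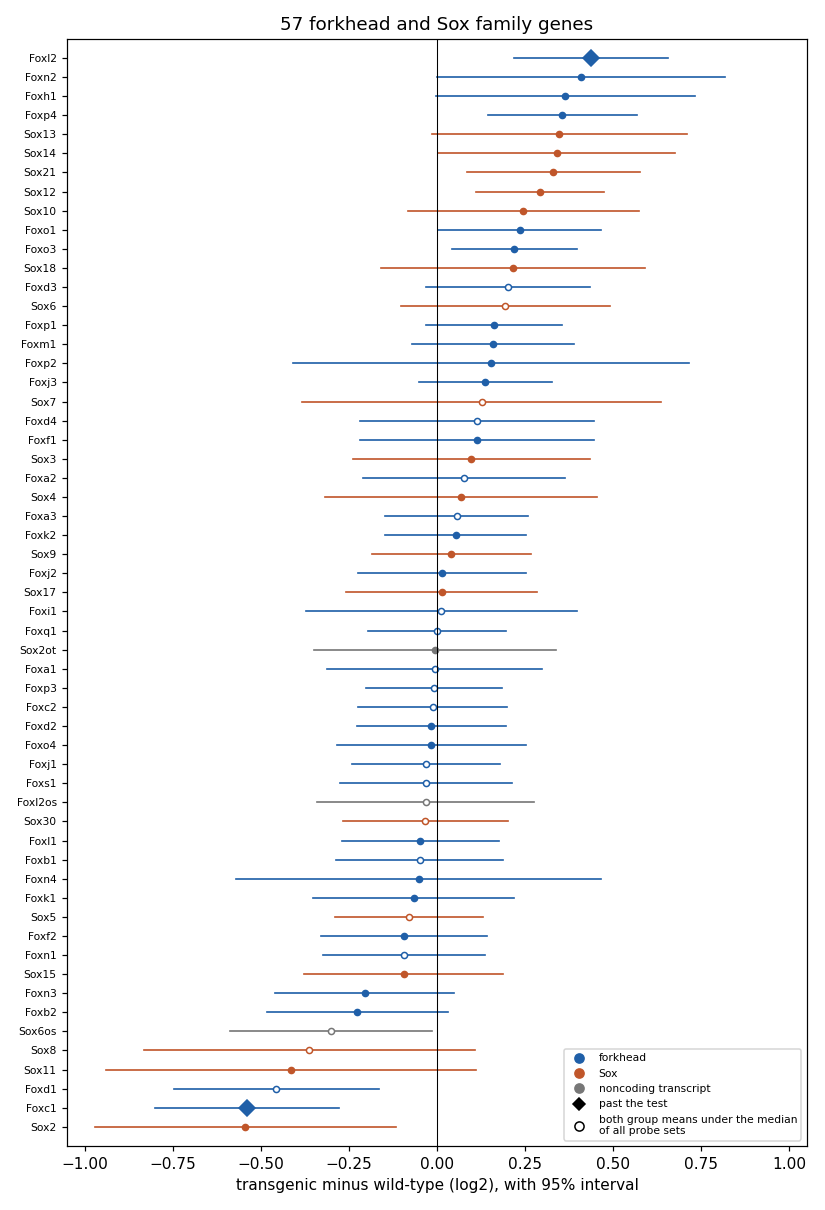
Difference between transgenic and wild-type lenses (log2, horizontal axis) for each of the 57 genes, with its 95% interval from limma, sorted by size. Diamonds mark Foxl2 and Foxc1, which passed the test, and open symbols mark genes below the median of all probe sets in both groups; every interval lies inside -1 and 1.

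Foxc1 encodes a factor of the neural crest-derived mesenchyme that forms the cornea, iris and drainage angle. Its values were 5.84, 5.82 and 5.96 in transgenic replicates 1 to 3 and 6.22, 6.42 and 6.60 in the wild-type replicates. All transgenic arrays were below all wild-type arrays. The means were 5.87 ± 0.08 and 6.41 ± 0.19 (SD, n = 3 each), a difference of -0.54 ± 0.11 (SE; limma adjusted p = 0.0397). In whole lenses, fewer cells of a type and less RNA per cell cannot be told apart. Of the 10 mesenchyme and cornea markers none passed. Their median difference was 1.25 with 9 of 10 above 0, which rested on transgenic replicate 3: without it the median was 0.068, with 7 above 0 and 3 below. The part of such cells in the Foxc1 value was not tested. Without transgenic replicate 3 the difference was -0.58 and just missed the threshold (limma adjusted p = 0.0528). Of the arrays left out in turn, only the omission of wild-type replicate 1 kept the call, and the adjusted p reached 0.135 without transgenic replicate 2. A dimmer probe set of Foxc1, with means of 4.66 and 4.56, differed by 0.11, and the mean over both probe sets, at -0.22, did not pass (limma adjusted p = 0.197).

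Foxl2, known for its part in the eyelids and the ovary, stood at 6.20, 6.18 and 6.40 in transgenic and at 5.77, 5.78 and 5.91 in wild-type lenses. The groups did not overlap, and transgenic replicate 3 was the highest array. The difference was 0.44 ± 0.095 (SE), from means of 6.26 ± 0.12 and 5.82 ± 0.07 (SD, n = 3 each; limma adjusted p = 0.0449). Without transgenic replicate 3 it was 0.37 and did not pass (limma adjusted p = 0.0921), nor did it pass with any other array left out, where the adjusted p ran from 0.0916 to 0.147. It also missed the threshold after shifting the deposited arrays to a common median (0.0513) and with trended variances (0.0539). A second, dimmer probe set differed by -0.027, and the noncoding transcript Foxl2os by -0.032. The mean over both probe sets of Foxl2 differed by 0.21 and did not pass (limma adjusted p = 0.135).

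To show the sequence beside the values, the 250 bases before the annotated start are given for the 2 called genes and for Sox12, whose window holds a forkhead motif. The sequences come from RefSeq on GRCm38.p6, through a promoter table in which 37 of the 57 genes were matched: Foxc1 at chr13:31806396-31806645 on the plus strand, Foxl2 at chr9:98955357-98955606 on the plus strand and Sox12 at chr2:152398047-152398296 on the minus strand. Capitals mark the forkhead core.
Foxc1: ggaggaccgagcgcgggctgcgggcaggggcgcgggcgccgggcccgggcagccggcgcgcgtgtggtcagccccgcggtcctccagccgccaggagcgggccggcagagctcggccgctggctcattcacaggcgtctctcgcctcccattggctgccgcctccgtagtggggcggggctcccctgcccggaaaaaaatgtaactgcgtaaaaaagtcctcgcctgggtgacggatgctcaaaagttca
Foxl2: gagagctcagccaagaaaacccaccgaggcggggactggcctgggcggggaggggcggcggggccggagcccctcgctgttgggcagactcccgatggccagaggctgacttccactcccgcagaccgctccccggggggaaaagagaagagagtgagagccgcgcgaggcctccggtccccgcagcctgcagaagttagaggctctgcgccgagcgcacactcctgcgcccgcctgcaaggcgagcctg
Sox12: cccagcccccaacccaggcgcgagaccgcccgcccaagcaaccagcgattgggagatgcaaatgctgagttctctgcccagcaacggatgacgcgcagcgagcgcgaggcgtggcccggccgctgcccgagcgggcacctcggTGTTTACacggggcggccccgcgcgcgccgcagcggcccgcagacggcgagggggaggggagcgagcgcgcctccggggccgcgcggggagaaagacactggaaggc
The forkhead core was searched as GTAAACA and the Sox core as ACAAT, both on either strand; the last letters of the first can be the first letters of the second. Neither occurs before Foxc1 or Foxl2, and the Sox core does not occur before Sox12. The forkhead core is found in 2 of the 47 annotated promoters of these genes, those of Foxa1 and Sox12, and in 3.17% of all 32851 promoters in the table. The Sox core is found in 9 of the 47, belonging to Foxd4, Foxp1, Sox15, Sox30, Sox5 and Sox6, and in 27.7% of all. The windows before Foxc1 and Foxl2 have a G and C content of 70.8% each, and that before Sox12 of 74.4%. A match is a description of letters only.

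The neighbours of Foxc1 on the genome are forkhead genes too, and they did not pass. In the RefSeq annotation of GRCm38.p6, Foxq1, Foxf2 and Foxc1 are successive protein-coding genes on chromosome 13, and Foxq1 and Foxf2 differed by 0.00014 and -0.093 where Foxc1 differed by -0.54. Foxc2 and Foxl1, side by side on chromosome 8, differed by -0.013 and -0.047. Foxd2, the neighbour of Foxe3 on chromosome 4, differed by -0.016 ± 0.09 (SE), beside the rise of 4.64 in Foxe3. Foxq1 and Foxd2 are outside the rule for named genes.

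**Figure D3:**
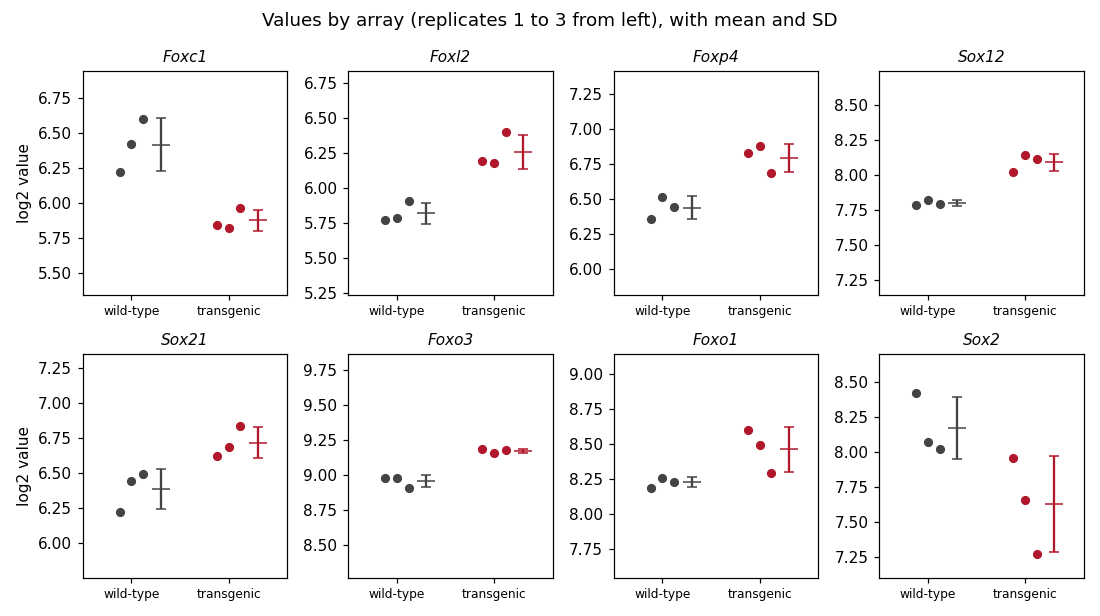
Log2 values of 8 genes in each array (points, replicates 1 to 3 from left to right) with the group mean and SD to their right; each panel spans 1.6 log2 units around the gene's own mean. All 8 are among the 12 of the 57 genes whose groups do not overlap (21.1%, against 28.8% of all genes), so the gap in every panel follows from the choice of genes. Only Foxc1 and Foxl2 passed the test.

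The factors of the lens lineage come first among the Sox genes. Sox2, which opens lens development in the surface ectoderm and also marks neural progenitors, stood at 7.96, 7.66 and 7.27 in transgenic and at 8.42, 8.07 and 8.02 in wild-type lenses. Every transgenic array was below every wild-type array, yet the spread inside the transgenic group, 0.35 (SD), was wide against a difference of -0.54 ± 0.18 (SE; limma adjusted p = 0.139). Sox3, the other relative of Sox1 and Sox2, had overlapping groups, with means of 6.35 and 6.25 and a difference of 0.098. Sox1, which is not among the 57, stood at 9.91, 9.40 and 9.15 in transgenic and at 9.39, 9.45 and 9.55 in wild-type lenses, so transgenic replicate 1 was its highest array and transgenic replicate 3 its lowest. The difference of Sox1 was 0.021. A second probe set of Sox1, with means of 6.94 and 7.38, differed by -0.44 and did not pass (limma adjusted p = 0.220 over probe sets). Sox2ot, the noncoding transcript around Sox2, had overlapping groups with means of 9.43 ± 0.31 and 9.44 ± 0.03 (SD, n = 3 each).

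Sox21 and Sox14 form the group B2, repressors that oppose Sox2-type activators in neural tissue. Sox21 stood at 6.62, 6.69 and 6.84 in transgenic and at 6.22, 6.44 and 6.49 in wild-type lenses, all transgenic arrays above, with a difference of 0.33 ± 0.11 (SE; limma adjusted p = 0.122). A dim second probe set of Sox21 differed by 0.36, and there transgenic replicate 3, at 5.19, was high alone. Sox14, known from neurons, differed by 0.34 with overlapping groups (limma adjusted p = 0.220). Sox15, the single member of group G in the mouse, differed by -0.095.

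The group C factors, known from neural and mesenchymal progenitors, went different ways without passing. Sox12 stood at 8.02, 8.14 and 8.11 in transgenic and at 7.78, 7.82 and 7.79 in wild-type lenses. These groups were tight and apart, at 0.29 ± 0.08 (SE; limma adjusted p = 0.0816). Sox4 overlapped widely, with means of 11.04 and 10.97. Sox11 stood at 7.35, 7.93 and 7.65 in transgenic and at 8.54, 7.94 and 7.70 in wild-type lenses, a difference of -0.41 ± 0.23 (SE; limma adjusted p = 0.328), with the groups overlapping. All 6 probe sets of Sox11, which read the same gene, differed downward, by 0.084 to 0.41 in size.

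Markers of neural retina were read beside Sox11. Of 16 measured retina markers 15 differed downward, with a median of -0.38, and 1, the neuronal gene Elavl4, fell, by 0.72; their summed level was 11.38 to 12.05 in transgenic and 11.73 to 12.37 in wild-type lenses. From low to high, the arrays ran in the order transgenic 1, transgenic 3, wild-type 3, transgenic 2, wild-type 2 and wild-type 1 for both the retina markers and Sox11. Sox11 was the single one of the 57 genes with that order, and its share over all genes was not counted. The order of Sox11 included a near tie, 7.933 in transgenic replicate 2 and 7.935 in wild-type replicate 2. No other probe set of Sox11 had that order. In the second brightest, wild-type replicate 3 was lowest, at 7.386, and wild-type replicate 2, at 7.816, was below transgenic replicate 2, at 7.955. Sox2 did not follow the order of the retina markers: transgenic replicate 1, lowest in retina markers, was the highest of the transgenic arrays in Sox2. The part of the retina transcripts in the values of Sox11 and Sox2 was not tested.

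**Figure D4:**
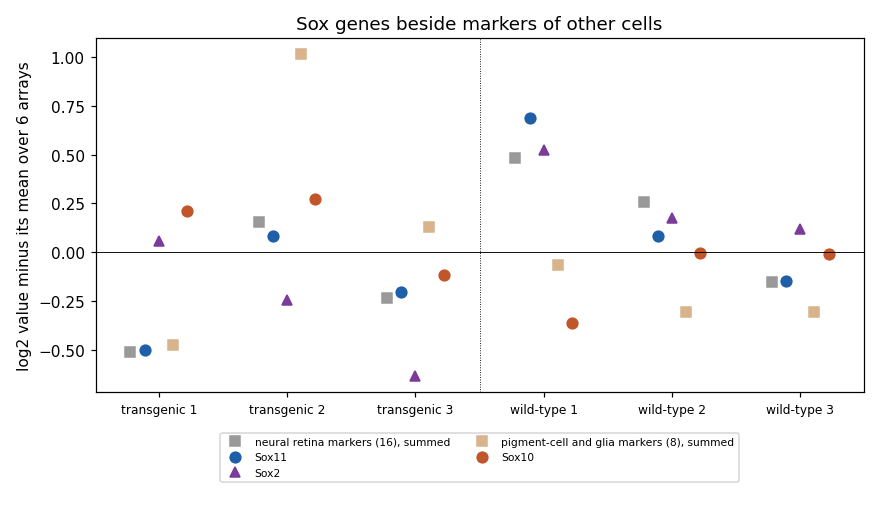
Log2 value of each item minus its mean over the 6 arrays (vertical axis), by array (horizontal axis), for Sox11, Sox2 and Sox10 and for the summed levels of 16 neural retina markers and of 8 pigment-cell and glia markers. Sox11 lies close to the retina markers in most arrays. Transgenic replicate 2 is the highest array for both Sox10 and the pigment-cell markers, by less for Sox10. Transgenic replicate 1 is the lowest array for the pigment-cell markers but lies above every wild-type array for Sox10.

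The group E factors serve neural crest, glia and cartilage. Sox10, the crest factor of melanocytes and glia, stood at 7.03, 7.09 and 6.70 in transgenic and at 6.46, 6.82 and 6.81 in wild-type lenses. The groups overlapped at 0.25 ± 0.14 (SE; limma adjusted p = 0.352). A second probe set, 1451689_a_at, stood at 6.80, 6.68 and 6.69 against 6.19, 6.19 and 6.29, a difference of 0.50 that passed when every probe set was tested on its own (limma adjusted p = 0.0209). The third probe set differed by -0.034. Pigment-cell and glia markers were summed at 12.39 in transgenic replicate 2 and at 10.90 to 11.50 in the other 5 arrays. Transgenic replicate 1, the lowest in these markers at 10.90, was above every wild-type array in the brightest and the second probe set of Sox10. In the third, dim probe set it was the lowest array, at 4.40. Of the 8 measured, 6 differed upward and 1, the melanocyte factor gene Mitf, passed, in the downward direction, at -0.56. The part of such cells in the second Sox10 value was not tested.

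Sox9, which acts in cartilage and in retinal glia, overlapped between groups at means of 6.65 and 6.61, a difference of 0.041, which turned to -0.023 after shifting the deposited arrays to a common median. A second probe set of Sox9 differed by -0.34 and did not pass (limma adjusted p = 0.0745 over probe sets). Sox8, below the median level, differed by -0.36 with overlapping groups. The group D factors, partners of Sox9 in cartilage, were without a call: Sox13 differed by 0.35 ± 0.16 (SE; limma adjusted p = 0.240), Sox5 by -0.080 and Sox6 by 0.19. Of 11 genes of cartilage-type matrix that Sox9, Sox5 and Sox6 drive, none passed and the median was 0.031. The smallest p among them belonged to the collagen genes Col9a2, at -0.38, and Col11a2, at 0.17, and to the matrilin gene Matn1, at 0.097. The endothelial factors of group F, Sox7, Sox17 and Sox18, which are outside the rule for named genes, differed by 0.13, 0.014 and 0.22 with overlapping groups. Endothelial markers were summed at 10.91 to 11.10 in transgenic and 10.95 to 11.26 in wild-type lenses, and 10 of the 12 differed downward, with a median of -0.11. The receptor gene Tek alone among them passed, and it rose, by 0.49. The part of endothelial cells in the values of Sox7, Sox17 and Sox18 was not tested.

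Among forkhead genes, the FoxO factors carry insulin and stress signals to the nucleus. Foxo3 stood at 9.18, 9.16 and 9.18 in transgenic and at 8.98, 8.98 and 8.90 in wild-type lenses. These arrays were the tightest of the 57 genes by standard error, and the groups did not overlap, at 0.22 ± 0.08 (SE; limma adjusted p = 0.147). Foxo1 stood at 8.60, 8.49 and 8.29 against 8.19, 8.26 and 8.23, again without overlap, at 0.23 ± 0.10 (SE; limma adjusted p = 0.219). All 4 probe sets of Foxo1 and all 3 of Foxo3 differed upward, by 0.066 to 0.38 and 0.18 to 0.23. Foxo4 differed by -0.016, and its second, dimmer probe set by 0.31. These transcript levels do not show where the proteins were.

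Of 20 genes known as FoxO targets, 1 rose and 1 fell, against 1.93% and 2.61% of all genes. They were the sestrin genes, whose products restrain growth signalling under stress: Sesn3 rose by 0.48 ± 0.085 and Sesn1 fell by 0.89 ± 0.10 (SE; limma adjusted p = 0.0238 and 0.00427). The median of the list was -0.013. Bnip3, of mitochondrial autophagy, differed by 0.43 (limma adjusted p = 0.0682), with the groups apart. Gabarapl1, another autophagy gene and outside the rule for named genes, differed by -0.44, also with the groups apart (limma adjusted p = 0.0811). Sesn3 was no longer called without transgenic replicate 1, 2 or 3 or wild-type replicate 2 or 3 (limma adjusted p up to 0.0876). Sesn1 passed with any 1 array left out, but not as the mean of its probe sets, at -0.55 (limma adjusted p = 0.0927). Of 18 genes of insulin and Akt signalling, none passed and the median was 0.079. The receptor gene Igf1r, at 0.34, the kinase gene Akt2, at 0.32, and the adaptor gene Irs2, at 0.26, had the smallest p, and each was higher in all transgenic arrays. The adaptor gene Irs1, outside the rule for named genes, was lower in all transgenic arrays, at -0.24. The groups were thus apart upward for 3 of the 18 genes and downward for 1, against 15.3% and 13.5% of all genes.

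Foxm1, which switches on genes of mitosis, stood at 7.31, 7.26 and 7.16 in transgenic and at 6.93, 7.13 and 7.20 in wild-type lenses. The groups overlapped at 0.16 ± 0.10 (SE; limma adjusted p = 0.384), and 2 of its other probe sets differed by -0.0082 and -0.22. Of 14 measured Foxm1 target genes none passed, although 13 differed downward. The median of the list was -0.37, the opposite sign to Foxm1's brightest probe set. Of the 14, 8 reached an unadjusted p under 0.05 (limma), against 22.4% of all genes. The groups were apart downward for 6 and upward for 0, against 13.5% and 15.3% of all genes. The list was chosen with earlier results of these data known, so these counts are a description only. Plk1, a mitotic kinase gene, differed by -0.38, the centromere histone gene Cenpa by -0.40 and the survivin gene Birc5 by -0.42 (limma adjusted p = 0.0674, 0.102 and 0.130). After shifting the deposited arrays to a common median, Plk1 passed (0.0425). The retina markers moved the same way as the Foxm1 targets, by the values above. The summed level of the targets had the array order of the retina markers, from 12.03 in transgenic replicate 1 to 12.57 in wild-type replicate 1. Transgenic replicate 3, wild-type replicate 3 and transgenic replicate 2 were close, at 12.16, 12.19 and 12.20. The part of the retina transcripts in these values was not tested.

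The group P factors act in neurons, lung and lymphocytes. Foxp4 stood at 6.83, 6.88 and 6.68 in transgenic and at 6.36, 6.51 and 6.45 in wild-type lenses, without overlap, at 0.36 ± 0.09 (SE; limma adjusted p = 0.0715). With array weights it passed (0.0472). Other probe sets of Foxp4 differed by -0.13 and 0.0041. Foxp1 stood at 8.43, 8.30 and 8.28 against 8.16, 8.22 and 8.14, a small gap of 0.16 that did not pass. Of its 8 probe sets, 1421141_a_at, with means of 5.19 and 5.66, differed by -0.47 and passed over all probe sets (limma adjusted p = 0.0365), against the direction of the brightest. Foxp2 and Foxp3 overlapped, at 0.15 and -0.0084.

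Group N holds factors with separate duties. Foxn4, which the retina needs for amacrine and horizontal neurons, overlapped widely at 7.22, 8.06 and 7.57 against 7.70, 7.94 and 7.36. Foxn3, a repressor tied to cell cycle checkpoints, stood at 7.99, 8.03 and 8.12 against 8.04, 8.34 and 8.37, a difference of -0.21 ± 0.11 (SE; limma adjusted p = 0.314). Its probe set 1438255_at, however, stood at 7.22, 7.28 and 7.23 against 7.76, 7.80 and 7.79. These groups were narrow and well apart, at -0.54 (limma adjusted p = 0.0109 over all probe sets). The other 2 probe sets of Foxn3 differed by -0.0030 and -0.11. Foxn2 differed by 0.41 ± 0.18 (SE; limma adjusted p = 0.222), with overlapping groups, and a dim second probe set by -0.35. Foxn1, the thymus factor, differed by -0.095.

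**Figure D5:**
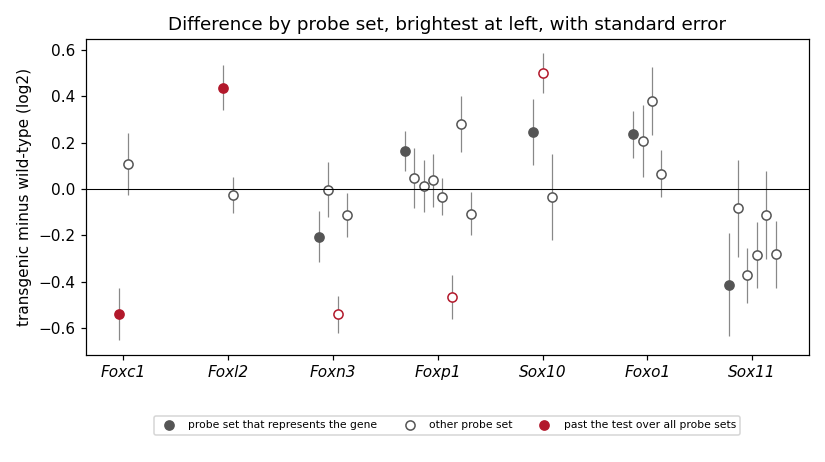
Difference between transgenic and wild-type lenses (log2, vertical axis) with its standard error for each probe set of 7 genes, from the brightest at the left of each gene. Filled points mark the probe set that represents the gene, and red marks those past the test over all probe sets: the filled ones of Foxc1 and Foxl2 and an open one each of Foxn3, Foxp1 and Sox10.

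Probe sets of 1 gene thus differed among themselves. The 57 genes had 133 probe sets, 25 genes having 1 and 32 having several. Of the 35 further probe sets that reached the median level, 23 had the sign of the brightest one and 12 the opposite sign. Tested one by one over 34945 probe sets, 5 of the 133 passed: those of Foxl2 and Sox10 upward, and those of Foxc1, Foxn3 and Foxp1 downward. They are 3.76% of the 133, against 4.25% of all probe sets tested (1.66% higher and 2.59% lower), a share near the background. Which transcript ends these probe sets read was not analysed here.

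The remaining forkhead genes of the naming rule gave no call. Foxh1, a partner of Smad proteins in Nodal signalling, differed by 0.36 ± 0.16 (SE; limma adjusted p = 0.227). Foxj3 stood at 8.29, 8.40 and 8.43 against 8.20, 8.23 and 8.28, all transgenic arrays above by a narrow margin, at 0.14. Foxk2 and Foxk1, which restrain autophagy genes, differed by 0.054 (-0.042 after shifting the deposited arrays to a common median) and -0.066, Foxb2 by -0.23 and Foxl1 by -0.047. Outside that rule, Foxf1 and Foxj2 differed by 0.11 and 0.014, and the noncoding Sox6os by -0.30 with overlapping groups (limma adjusted p = 0.207). Foxi1, Foxs1 and Sox30 are given with the others in the plot of all differences.

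A list of transcription factors and other regulators, taken as partners of Sox and forkhead proteins in the lens, was read from the same fit. Of 23 measured, none rose and 2 fell, the fiber homeobox gene Prox1, at -1.04, and the chromatin protein gene Hmgn3, at -0.64, and the median was -0.20. These 2 falls are 8.70% of the list, against 2.61% of all genes called lower and 1.93% called higher. The list was chosen with earlier results of these data known, so its share is a description only. Of the 16 markers of neural retina 15 also differed downward, with a median of -0.38. The part of retina transcripts in the values of this list was not tested. Prox1 did not pass as the mean of its probe sets, at -0.68 (limma adjusted p = 0.0568). Hmgn3 was no longer called without transgenic replicate 2 or wild-type replicate 2 or 3 (limma adjusted p up to 0.0713). Rarb, a retinoic acid receptor gene, differed by 0.45 (limma adjusted p = 0.0549) and passed without transgenic replicate 3 (0.0467). Whether the shares differ between these lists was not tested.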

How the data were processed

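Affymetrix arrays measured RNA of 6 whole lens samples, 3 transgenic and 3 wild-type. The deposited values were on a log2 scale per probe set, as the values themselves show; how the authors summarised and scaled them, and on which genome build, is not given in the sources used here. Array medians ran from 5.29 to 5.37. The upper quartiles of the arrays differed by up to 0.120, so the arrays were quantile normalized after 64 control probe sets were removed. Symbols came from the platform annotation: 34945 of 45037 probe sets had 1 symbol, 932 several and 9160 none. Each gene was read from the probe set with the highest mean.

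All 18193 genes were fitted with limma 3.58.1 in R 4.3.3 (lmFit and eBayes, two-sided, Benjamini-Hochberg over all genes, threshold 0.05). The fit was tested on simulated data, with 200 genes changed in each of 5 simulations. Genes changed by 0.3 (log2) were recovered in 0.4% of cases, those changed by 0.5 in 13.2%, by 1 in 84% and by 2 in 98.4%. In that setting most changes of 0.5 or less were missed. Genes were named where they passed, had the 10 largest or smallest differences among genes reaching the median of all probe sets, had the 10 highest means, or belonged to subfamilies with known roles in the eye or in cell cycle exit; some others are named as such. The genes and lists were chosen with earlier results of these data known. Alternatives changed the normalization, the filter on dim genes, the value per gene, the variance model, the array weights, the replicate block and the arrays included. The number of arrays limits the precision.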

Additional observations from a re-analysis of the deposited data

Results flagged for a closer look

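The second probe set of Sox10, 1451689_a_at, is outside the comparison by gene, which read Sox10 from its brightest probe set. On its own it was higher in 3 of 3 transgenic arrays than in any wild-type array, by 0.50 on the log2 scale (limma adjusted p = 0.0209 over all probe sets).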

How the results depend on the processing

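Over the 57 genes, higher calls, 1 in the fit reported, were 0 with the common median, the mean of probe sets, trended variances and the replicate block, 2 with array weights and 2 with every probe set; lower calls, also 1, were 0 with the mean of probe sets and the replicate block and 3 with every probe set. Leaving out 1 array gave 0 to 0 higher and 0 to 1 lower. The median difference was -0.013 with the common median, 0.083 with dim genes left out, -0.0089 with the mean of probe sets, -0.0074 with every probe set and 0.0023 to 0.048 with 1 array left out. Over all genes, 352 higher and 475 lower calls became 599 and 790 with array weights, 580 and 905 with every probe set, 69 and 154 with the replicate block, and 70 to 249 and 156 to 385 with 1 array left out.

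In the lists, FoxO targets had 2 higher with trended variances and with every probe set, 0 with the replicate block and 0 to 1 with 1 array left out; they had 2 lower as deposited, with the common median, trended variances and array weights, 3 with every probe set and 1 to 2 with 1 array left out. Foxm1 targets had 1 lower with the common median. Insulin and Akt genes had 1 higher with trended variances, array weights and every probe set, and 3 lower with the last. Partner factors had 1 higher with dim genes left out, trended variances and array weights and 0 to 1 with 1 array left out; lower were 1 with the mean of probe sets, 0 with the replicate block, 7 with every probe set and 1 to 3 with 1 array left out.

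Some differences changed sign with the processing. They were 0.021 for Foxc2, -0.0060 for Foxk2, 0.021 for Foxp3 and -0.056 for Sox1 as deposited; -0.042 for Foxk2, -0.092 for Sox1 and -0.023 for Sox9 with the common median; 0.023 for Foxc2 and 0.0042 for Foxn4 with array weights; and, with the mean of probe sets, -0.016 for Foxm1, 0.15 for Foxo4, -0.0089 for Foxp1, -0.025 for Foxp2, -0.21 for Sox1, -0.050 for Sox4, -0.077 for Sox6 and -0.12 for Sox9. With 1 array left out the ranges that crossed 0 were -0.057 to 0.044 for Foxc2, -0.18 to 0.021 for Foxk1, -0.0030 to 0.093 for Foxk2, -0.098 to 0.034 for Foxl1, -0.27 to 0.15 for Foxn4, -0.12 to 0.075 for Foxo4, -0.020 to 0.40 for Foxp2, -0.037 to 0.043 for Foxp3, -0.19 to 0.19 for Sox1, -0.18 to 0.087 for Sox2ot, -0.11 to 0.21 for Sox4 and -0.0027 to 0.11 for Sox9.

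With the replicate block, Foxc1 and Foxl2 did not pass (limma adjusted p = 0.0769 and 0.0857), nor did Prox1, Hmgn3 and Sesn3 (0.0583, 0.0677 and 0.0851). Same-numbered arrays deviated together little: their correlations were -0.052, 0.084 and 0.028. Those of differently numbered arrays ran from -0.12 to 0.075. With 3 arrays for each genotype, these values cannot show whether same-numbered arrays were paired. The causes were not tested. The marker medians without transgenic replicate 3 were added after seeing the data. Probe sets below the median level limit what can be read for 21 of the 57 genes.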
